A study of Mus musculus with 8 samples.

Results

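The prostaglandin E2 and prostacyclin pathway was followed through 10 genes, Ptgs1, Ptgs2, Ptges, Ptges2, Ptges3, Ptgis, Hpgd, Ptger1, Ptger2 and Ptger4, of the 55335 gene identifiers in the table. They were chosen by their role as cyclooxygenases, terminal synthases, breakdown enzyme and receptors of the E type. The RNA came from MC3T3-E1, a cell line of pre-osteoblasts derived from mouse calvaria, cultured for 3 days with TABS, the Trio-Active bone scaffold (n = 4 libraries), or with HA, a scaffold that the labels call HA/Mg (n = 4 libraries). The sources used here do not give the composition of TABS, and every library came from cells grown with a scaffold, so a difference is relative to HA and not to scaffold-free cells. Library names hold an H where the title says TABS and an L where it says HA, and the table holds no gene by which this assignment could be checked. The labels do not state whether the replicates were separate cultures, and the p-values cover the spread among these 8 libraries, possibly a technical one.

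Prostaglandins are lipid signals made on demand. Phospholipases free arachidonic acid from membranes, the cyclooxygenases PTGS1 and PTGS2 turn it into prostaglandin H2, and terminal synthases convert this intermediate to prostaglandin E2 (PTGES) or prostacyclin (PTGIS). In bone, prostaglandin E2 made by osteoblasts acts on their own EP receptors and, through RANKL, on osteoclast formation, and PTGS2 is the form known to be induced by loading, cytokines and fracture.

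All values are FPKM, fragments per kilobase of transcript scaled to the library's fragments. Levels of different genes are set side by side on this scale, but the length used for each gene is not stated. The total was 304893 to 307263 FPKM in TABS and 312629 to 317439 FPKM in HA, and 11187 to 11258 genes in TABS and 11219 to 11357 in HA reached 1 FPKM. The table gives no read totals. Judged from the steps between low values, 1 FPKM over 1 kilobase of exon equalled about 18.3 to 24.7 fragments per TABS library and 20.9 to 26.0 per HA library, if 1 step is 1 fragment. The osteoblast markers Runx2 (16.7 to 17.7 FPKM in TABS and 17.9 to 19.5 in HA) and Col1a1 were present in every library. Alpl (0.373 to 0.518 FPKM in TABS and 1.13 to 1.80 in HA) and Bglap (0.974 to 1.52 and 1.25 to 2.06) were low. Of the 8 osteoblast markers 5 were lower in TABS (limma, adjusted p under 0.05), 3 did not pass and 0 were higher. Over all 11280 tested genes 2.90% were lower and 4.49% were higher. Ibsp had the smallest p of all tested genes (limma adjusted p = 1.51e-05), at 12.8 to 16.0 FPKM in TABS and 46.8 to 55.2 in HA. The list sums, 1864 to 2000 FPKM in TABS and 2187 to 2710 FPKM in HA, came mostly from Col1a1 and Col1a2. The mitochondrial share of all FPKM was 10.2% to 12.2% in TABS and 12.1% to 14.5% in HA. The part of either shift in the prostaglandin results was not tested, and in bulk RNA fewer cells of a type and less RNA per cell cannot be told apart. The 6 macrophage markers summed to 0.224 to 0.499 FPKM in TABS and 0.260 to 0.349 in HA, with Itgam and Tyrobp listed at 0 throughout. The 4 endothelial markers summed to 0.204 to 0.346 FPKM in TABS and 0.173 to 0.228 in HA, with Kdr listed at 0. The 4 adipocyte markers summed to 2.92 to 3.39 FPKM in TABS and 2.62 to 3.39 FPKM in HA, and the 4 chondrocyte markers to 41.0 to 44.0 FPKM in TABS and 37.5 to 42.0 FPKM in HA, with 1 (Col2a1) of 2 tested chondrocyte markers higher in TABS.

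Expression of the pathway was concentrated in a few genes of prostaglandin synthesis. Ptges had the highest level of the 10 genes in both groups, at 81.4 ± 2.16 FPKM in TABS and 67.7 ± 2.27 FPKM in HA (SD, n = 4 each). Ptges3 and Ptgs1 followed, Ptges2 and Ptgs2 stood below 6 FPKM, and Ptgis, Hpgd and the 3 receptor genes stayed under 1 FPKM in every library. Within each of the 8 libraries Ptges3 lay above Ptgs1. Across libraries the ranges of Ptges3 (31.9 to 36.9 FPKM) and Ptgs1 (30.6 to 32.1 FPKM) overlapped in TABS, and those of Ptges3 (33.8 to 40.3 FPKM) and Ptgs1 (23.4 to 25.2 FPKM) did not in HA. Ptges2 lay above Ptgs2 in all libraries of both groups. Among the genes under 1 FPKM, Ptgis overlapped Ptger1 in both groups, and Ptger1 overlapped Ptger4 in TABS but not in HA.

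**Figure D1:**
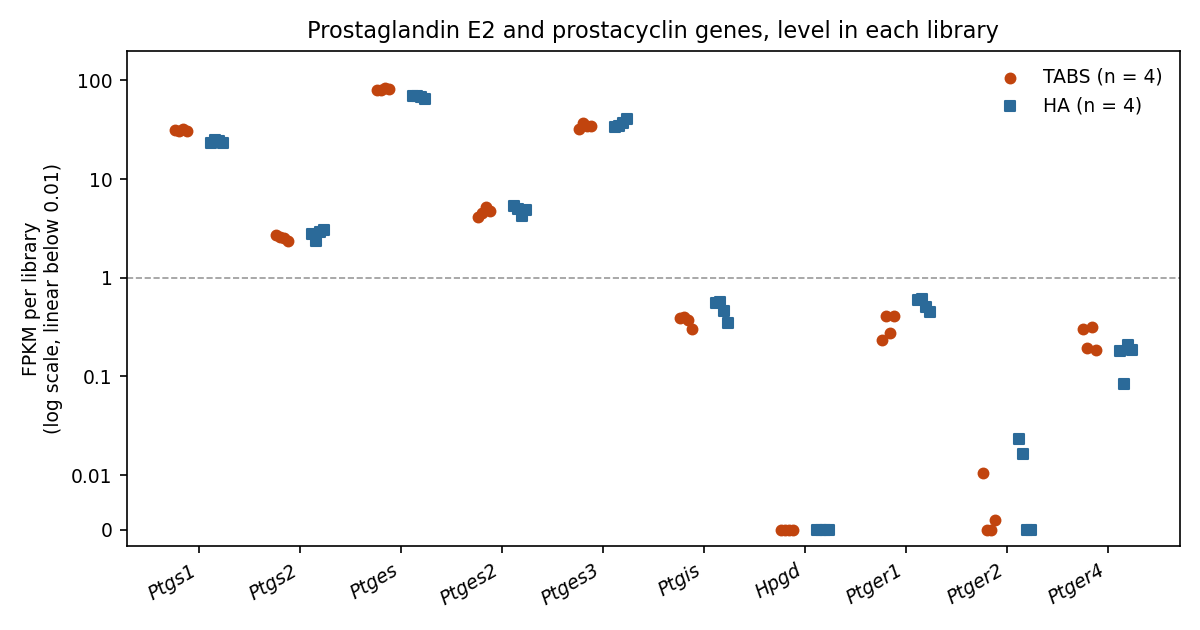
FPKM of the 10 genes in each library on a log axis that is linear below 0.01 FPKM, with TABS as circles and HA as squares, 4 libraries each; the dashed line marks 1 FPKM. Ptges, Ptges3 and Ptgs1 lie above 20 FPKM in every library, Ptges2 and Ptgs2 between 2 and 6 FPKM, and the other 5 genes under the dashed line.

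The results turn on Ptgs1, Ptges and Ptgs2, whose promoters are printed here because Ptgs1 and Ptges rose in TABS and Ptgs2, the inducible cyclooxygenase gene, did not pass the test. RefSeq windows (build GRCm38.p6, 250 bases before to 50 after the annotated start) were matched for 8 of the 10 genes, all but Ptgis and Ptger1. The Ptgs1 window is chr2:36230176-36230475 on the plus strand, that of Ptges chr2:30903248-30903547 on the minus strand and that of Ptgs2 chr1:150099781-150100080 on the plus strand. Capitals mark matches to any of 8 motifs searched on both strands, the TATA box (TATAAA), a C/EBP palindrome (TTGCGCAA), the core of the cAMP response element (TGACG), the E-box (CACGTG), the GC box (GGGCGG), and the AP-1 (TGANTCA), EGR (GCGNGGGCG) and NF-kB motifs.
Ptgs1: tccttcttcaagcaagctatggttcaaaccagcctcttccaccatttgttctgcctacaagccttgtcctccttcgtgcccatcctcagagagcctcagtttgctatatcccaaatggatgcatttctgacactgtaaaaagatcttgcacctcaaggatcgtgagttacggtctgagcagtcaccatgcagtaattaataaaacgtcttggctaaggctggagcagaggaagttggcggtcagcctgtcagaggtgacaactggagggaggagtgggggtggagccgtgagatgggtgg
Ptges: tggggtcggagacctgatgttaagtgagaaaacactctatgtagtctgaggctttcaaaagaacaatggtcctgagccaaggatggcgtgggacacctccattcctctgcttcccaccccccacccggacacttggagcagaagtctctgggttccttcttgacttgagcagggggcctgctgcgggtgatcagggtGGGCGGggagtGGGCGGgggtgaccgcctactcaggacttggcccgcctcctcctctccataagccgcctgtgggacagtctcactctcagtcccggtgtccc
Ptgs2: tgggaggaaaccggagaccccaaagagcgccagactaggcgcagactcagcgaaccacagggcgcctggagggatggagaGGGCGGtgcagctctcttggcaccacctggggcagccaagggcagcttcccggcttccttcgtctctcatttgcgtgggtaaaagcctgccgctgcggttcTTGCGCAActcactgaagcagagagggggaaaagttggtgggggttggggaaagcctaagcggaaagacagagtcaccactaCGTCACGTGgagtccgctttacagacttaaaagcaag
The Ptgs1 window held none of the 8 motifs. The Ptges window held 2 GC boxes, at -53 and -42 from the annotated start, a motif found in 35.7% of 32851 promoter windows of the same length. GENCODE also holds a longer Ptges transcript that starts further upstream, at the gene's end coordinate on the minus strand, and this window does not cover that start. The Ptgs2 window held 1 GC box at -170 and the C/EBP palindrome at -69 (0.183% of all windows). At 14 and 17 bases past the annotated start it held 2 overlapping matches. These were the core of the cAMP response element on the minus strand (20.8%) and an E-box (7.15%). All positions count from the annotated start, and where transcription of Ptgs2 began in these cells was not tested. None of the 3 windows held the TATA box (13.6% of all windows), AP-1 (7.81%), NF-kB (0.411%) or EGR (5.55%) motif. These matches describe letters in a window and not binding.

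Ptgs1, the cyclooxygenase usually described as constitutive, was higher in TABS. It measured 31.5, 30.7, 32.1 and 30.6 FPKM in the TABS libraries, against 23.5, 25.2, 24.4 and 23.4 FPKM in the HA libraries. Every TABS library lay above every HA library, and the gap between the groups (25.2 to 30.6 FPKM) was wider than the range within either. The ratio of the means was 1.30, and the log2 fold change was 0.36 ± 0.04 (SE, limma adjusted p = 0.00123, 95% interval 0.27 to 0.45). By p it stood at place 63 of 11280 tested genes, and 120 of the 506 genes that rose had a larger fold change. Ptgs1 (ENSMUSG00000047250) is a protein-coding gene at chr2:36230426-36252272 in GRCm38. A predicted gene on the opposite strand, Gm43621, shares 148 of its 3884 exonic bases.

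Ptgs2, the inducible cyclooxygenase, stood about an order of magnitude lower and did not pass the test. Its values were 2.71, 2.62, 2.52 and 2.37 FPKM in TABS, against 2.75, 2.38, 2.90 and 3.07 FPKM in HA. The groups overlapped, with HA 2 at the level of the lowest TABS library. The log2 fold change was -0.08 ± 0.06 (SE, limma adjusted p = 0.469), with a 95% interval from -0.23 to 0.06, which leaves room for a small fall and excludes a rise as large as that of Ptgs1. Ptgs1 accounted for 92.1% to 92.8% of the summed FPKM of both cyclooxygenases in TABS and 88.4% to 91.4% in HA. Together they summed to 33.8 ± 0.79 FPKM in TABS and 26.9 ± 0.64 FPKM in HA (SD, n = 4), and only Ptgs1 of the pair was higher in TABS.

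Of the 3 genes named as prostaglandin E synthases, Ptges rose and the other two did not pass the test. Ptges encodes the microsomal, inducible synthase, Ptges2 a membrane-associated form, and Ptges3 the cytosolic form, which is also the HSP90 co-chaperone p23. Ptges measured 79.6, 79.7, 84.1 and 82.0 FPKM in TABS, against 68.9, 69.6, 67.9 and 64.5 FPKM in HA. The groups did not overlap, with 79.6 FPKM as the lowest TABS value and 69.6 FPKM as the highest HA value. The log2 fold change was 0.26 ± 0.04 (SE, limma adjusted p = 0.00601, 95% interval 0.17 to 0.35). Ptges (ENSMUSG00000050737) lies at chr2:30889471-30929863 in GRCm38, is protein-coding, and shares no exonic base with another annotated gene.

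Ptges2 measured 4.11, 4.50, 5.17 and 4.76 FPKM in TABS, against 5.37, 4.98, 4.26 and 4.84 FPKM in HA. The ranges of Ptges2 overlapped almost wholly, with TABS 1 lowest and HA 1 highest. Its log2 fold change was -0.06 ± 0.08 (SE, limma adjusted p = 0.696, 95% interval -0.23 to 0.11). Ptges3 measured 31.9, 36.9, 34.2 and 34.3 FPKM in TABS, against 33.8, 34.7, 37.1 and 40.3 FPKM in HA. Its groups overlapped as well, with HA 4 highest and TABS 1 lowest, and its log2 fold change was -0.08 ± 0.06 (SE, limma adjusted p = 0.467, 95% interval -0.23 to 0.06). After a correction for GC content and transcript length that of Ptges3 was 0.0091, so no direction is given for it. Ptges made up 65.8% to 68.9% of the summed FPKM of the 3 synthase genes in TABS and 58.8% to 63.8% in HA.

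**Figure D2:**
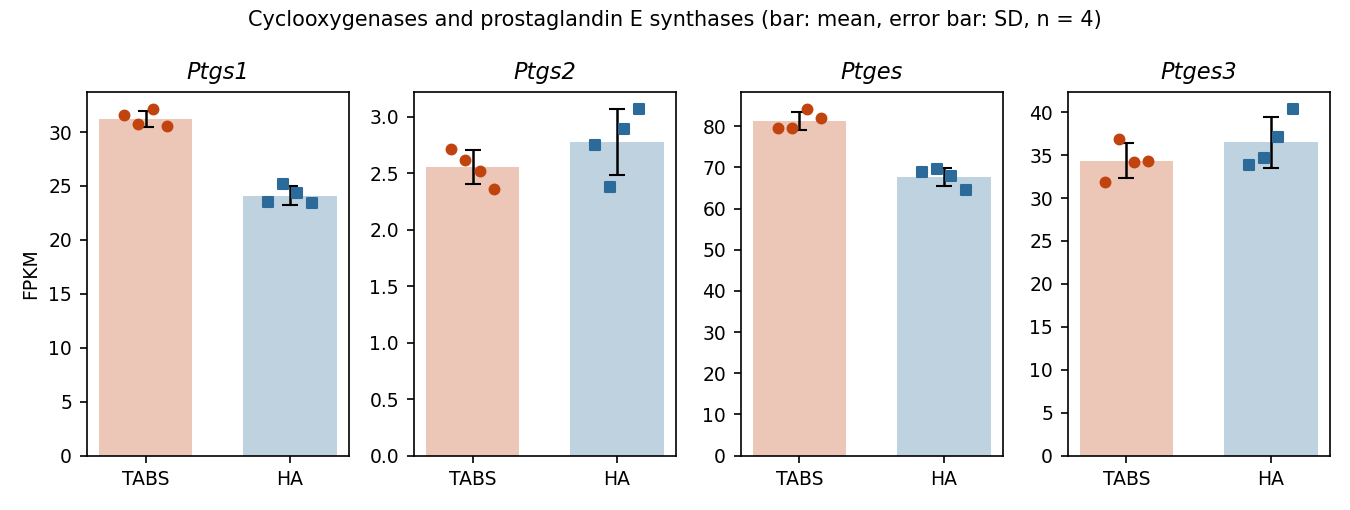
FPKM of both cyclooxygenase genes and of 2 prostaglandin E synthase genes in TABS (left in each panel) and HA (right); bars are means, error bars SD, points single libraries (n = 4), and each axis starts at 0. Ptgs1 and Ptges are higher in all 4 TABS libraries than in any HA library, while the points of Ptgs2 and Ptges3 overlap between the groups.

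Of the 10 genes, 5 reached 1 FPKM in at least 4 libraries and were tested. Of these, 2 rose (Ptgs1 and Ptges), 0 fell and 3 did not pass the test. Over all 11280 tested genes, 7.38% were called, 4.49% higher and 2.90% lower in TABS. In Ptgs1 and Ptges every TABS library lay above every HA library, as in 10.8% of all tested genes. The median log2 fold change of the 5 tested genes was -0.06, against 0.01 over all tested genes. With so few members these counts describe single genes and not the pathway.

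**Figure D3:**
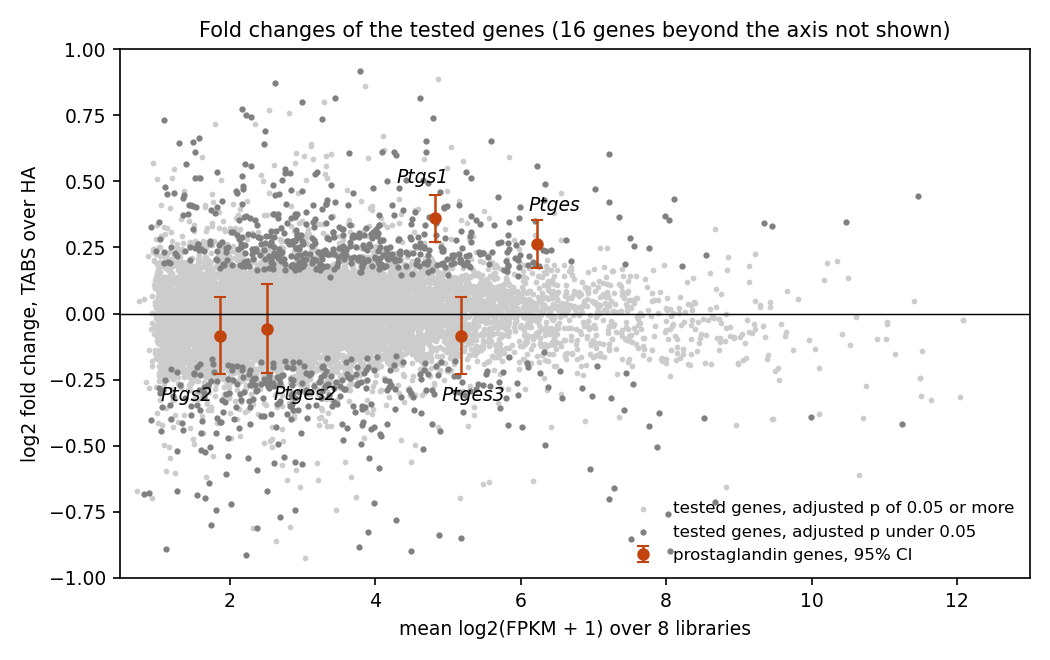
Log2 fold change of TABS over HA against mean log2(FPKM + 1) for the tested genes in grey (darker where the adjusted p was under 0.05) and for the 5 tested prostaglandin genes in orange-red with 95% intervals; 16 genes lie beyond the axis. The intervals of Ptgs1 (0.27 to 0.45) and Ptges (0.17 to 0.35) lie above 0 and those of Ptgs2, Ptges2 and Ptges3 cross it.

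The prostacyclin synthase gene was low in every library, and the gene of the breakdown enzyme was not detected. Ptgis, the cytochrome P450 enzyme that makes prostacyclin, measured 0.394, 0.403, 0.370 and 0.301 FPKM in TABS, against 0.555, 0.565, 0.459 and 0.350 FPKM in HA. The groups overlapped, because HA 4 lay below 3 of the TABS libraries. At the implied depth these values stand for about 18.5 to 25.5 fragments per TABS library and 23.3 to 36.0 per HA library. Without a filter on low FPKM its log2 fold change was -0.12 ± 0.05 (SE, limma adjusted p = 0.433 over 28201 genes, of which 1.92% were called). Of the 2567 exonic bases of Ptgis, 156 are shared with 1110018N20Rik on the opposite strand. FPKM of Ptges was 198 to 273 times that of Ptgis in TABS and 123 to 184 times in HA. Hpgd, the dehydrogenase that begins the inactivation of prostaglandin E2, was listed at 0 in all 8 libraries.

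No EP receptor gene reached 1 FPKM. Ptger4, a receptor coupled to cAMP, measured 0.303, 0.194, 0.317 and 0.184 FPKM in TABS, against 0.182, 0.0843, 0.210 and 0.184 FPKM in HA. The groups overlapped, and without a filter its log2 fold change was 0.10 ± 0.05 (SE, limma adjusted p = 0.455). Of its 6648 exonic bases, 1015 are shared with Gm15937 on the opposite strand. Ptger2, the other cAMP-coupled receptor, was listed at 0 in 2 TABS and 2 HA libraries. It reached at most 0.0106 FPKM in TABS and 0.0230 FPKM in HA, about 1.01 and 3.01 implied fragments. Its remaining values came to about 0.23 implied fragments in TABS 4 and 1.80 in HA 2. These are not whole, so implied fragments are approximate.

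Ptger1, a receptor coupled to calcium, measured 0.235, 0.414, 0.275 and 0.407 FPKM in TABS, against 0.596, 0.607, 0.501 and 0.455 FPKM in HA. All TABS values lay below all HA values. Of the tested genes 7.15% showed this arrangement, but Ptger1 was below the filter, and the share among genes at its level was not computed. Without a filter it did not pass (log2 fold change -0.21 ± 0.06 SE, limma adjusted p = 0.149). The strand setting is not stated, so reads of Ptger1 cannot be told apart from reads of the opposite strand, and their part in its values was not tested.

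Among other prostanoid receptors, that of prostaglandin F2 alpha stood out by its level. Ptgfr, named after its values were seen, measured 23.3, 20.8, 22.7 and 22.5 FPKM in TABS, against 22.2, 24.2, 24.4 and 27.5 FPKM in HA. It did not pass the test (log2 fold change -0.13 ± 0.06 SE, limma adjusted p = 0.257), and its FPKM was 34.2 to 42.6 times the sum of the 3 EP receptor genes in TABS and 27.8 to 43.0 times in HA. Ptgir, the prostacyclin receptor, measured 0.118, 0.139, 0.212 and 0.111 FPKM in TABS, against 0.0951, 0.108, 0.0291 and 0.0628 FPKM in HA. All TABS values of Ptgir lay above all HA values, as in 10.8% of the tested genes, which leave out Ptgir. The nearest values of the groups differed by little, and the unfiltered test was not passed (log2 fold change 0.09 ± 0.03 SE, limma adjusted p = 0.277). Ptger3, the EP receptor coupled to a fall in cAMP, was listed at 0 in every library.

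**Figure D4:**
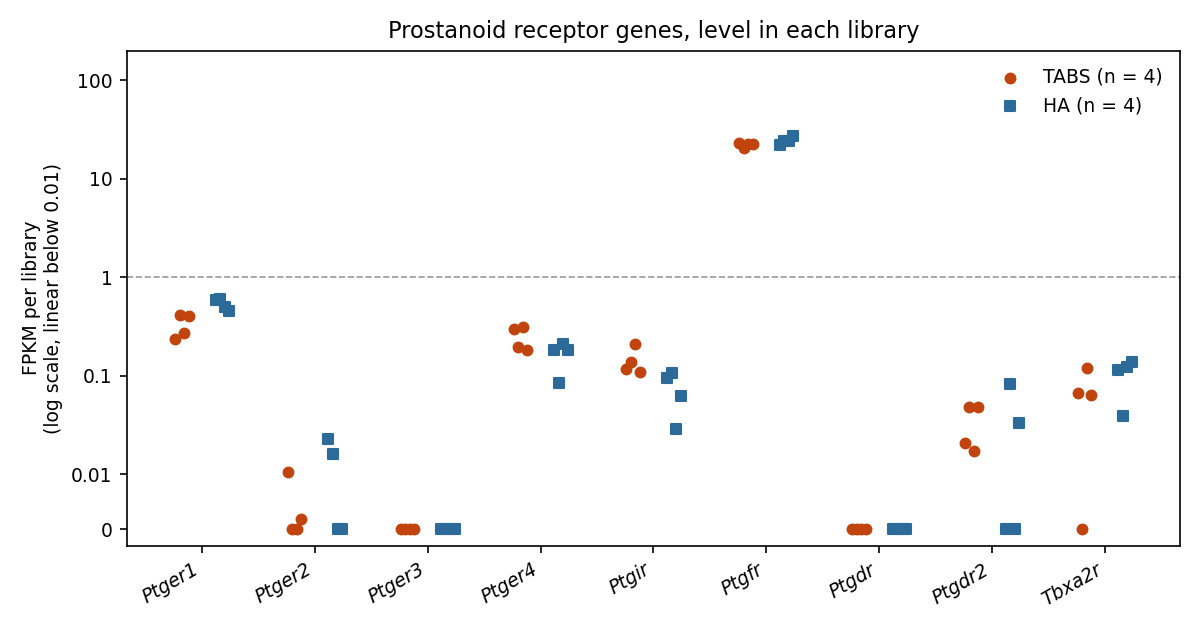
FPKM of 9 prostanoid receptor genes in each library on a log axis that is linear below 0.01 FPKM, with TABS as circles and HA as squares (n = 4 each); the dashed line marks 1 FPKM. Only Ptgfr, at 20.8 to 27.5 FPKM, lies above the dashed line among the receptors plotted, and Ptger3 and Ptgdr are at 0.

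The other prostanoid list held 17 genes of synthases, reductases and receptors. Of these 7 were tested, 1 rose and 0 fell (median log2 fold change 0.01, the same as over all tested genes). Over all tested genes 4.49% were higher and 2.90% were lower, and 7 genes are too few to be set against these shares. The riser was Ptgfrn, which encodes a membrane protein that binds to the prostaglandin F2 alpha receptor and lowers ligand binding. It measured 20.6, 21.4, 19.9 and 19.6 FPKM in TABS, against 12.9, 14.6, 14.9 and 14.2 FPKM in HA. The groups did not overlap, and the log2 fold change was 0.50 ± 0.05 (SE, limma adjusted p = 0.000999). Among synthases, Ptgds and Hpgds of prostaglandin D2 and Tbxas1 of thromboxane stayed under 0.08 FPKM in every library. Gstm2, a glutathione transferase gene of the list, measured 55.0 to 59.8 FPKM in TABS and 57.8 to 75.9 FPKM in HA. It did not pass the test (limma adjusted p = 0.186). The 17 genes summed to 162 to 168 FPKM in TABS and 160 to 172 FPKM in HA. The remaining synthase and reductase genes of the list are not described here.

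Of 18 genes that release arachidonic acid or return it to lipids, 12 were tested, and 0 rose and 0 fell (median log2 fold change 0.04). Over all tested genes 4.49% were higher and 2.90% were lower. Pla2g4a, the cytosolic phospholipase that supplies cyclooxygenases, measured 6.52, 7.47, 6.26 and 6.61 FPKM in TABS, against 6.93, 6.55, 7.58 and 9.26 FPKM in HA. The groups overlapped, with HA 4 highest (log2 fold change -0.15 ± 0.09 SE, limma adjusted p = 0.377). Faah, an amidase that frees arachidonic acid from anandamide, had the smallest adjusted p of the list, with 1.01 to 1.08 FPKM in TABS and 1.22 to 1.54 FPKM in HA (-0.22 ± 0.06, limma adjusted p = 0.0609). It passed only with the correction for GC content and length, where the limma adjusted p was 0.0126.

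Of 5 transport genes 2 were tested and 0 passed, against 7.38% of all tested genes. Abcc4, an exporter of prostaglandins, averaged 3.23 ± 0.16 FPKM in TABS and 3.21 ± 0.20 FPKM in HA (SD, n = 4, limma adjusted p = 0.962). Slco3a1, an organic anion transporter, averaged 4.64 ± 0.43 FPKM in TABS and 4.92 ± 0.08 FPKM in HA (SD, n = 4, limma adjusted p = 0.484). Slco2a1, the uptake carrier, did not reach 0.11 FPKM in any library. Of 9 lipoxygenase and leukotriene genes 2 were tested, and, against 2.90% lower of all tested genes, 1 fell. This was Alox5ap, the protein that presents arachidonic acid to 5-lipoxygenase, at 2.51, 2.18, 3.19 and 2.73 FPKM in TABS, against 4.17, 4.13, 3.64 and 3.26 FPKM in HA (log2 fold change -0.40 ± 0.09 SE, limma adjusted p = 0.0378). The Alox5ap groups did not overlap, 189 of its 1420 exonic bases are shared with Gm19719 on the opposite strand, and the call was lost without TABS 1, 2 or 4 or HA 1, 2 or 3 (adjusted p up to 0.0933). Alox5, the lipoxygenase itself, stayed at or under 0.0229 FPKM.

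Of 25 genes known to control Ptgs2 transcription or the decay of its mRNA, 24 were tested, 4 rose, 1 fell and 19 did not pass (median log2 fold change 0.07), against 4.49% higher and 2.90% lower of all tested genes. The 4 that rose were the AP-1 genes Jun (59.6 ± 1.63 FPKM in TABS and 37.6 ± 3.23 in HA, 0.65 on the log2 scale, limma adjusted p = 0.000718) and Fosl1 (0.53 on that scale, adjusted p = 0.0122), the C/EBP factor gene Cebpd and the decay factor gene Zfp36l2. Cebpd measured 25.1, 22.9, 25.1 and 24.1 FPKM in TABS, against 20.8, 19.8, 17.2 and 18.4 FPKM in HA, with no overlap (0.34 ± 0.06 SE, limma adjusted p = 0.0130). Zfp36l2 averaged 77.2 ± 2.69 FPKM in TABS and 67.8 ± 3.18 FPKM in HA (0.18 ± 0.05 SE, limma adjusted p = 0.0460), a call lost when any 1 library other than HA 3 was left out (adjusted p at most 0.121) and after the correction for GC content and length (0.167). Zfp36, which encodes tristetraprolin, a protein that binds AU-rich mRNAs such as that of Ptgs2 and speeds their decay, fell to 4.77 ± 0.30 FPKM in TABS, against 6.25 ± 0.24 FPKM in HA (log2 fold change -0.33 ± 0.05 SE, limma adjusted p = 0.00575). Exons of Fosl1 (57.2% of its bases, Ccdc85b) and Cebpd (15.0%, Spidr) overlap another gene on the opposite strand. Smaller overlaps of this kind are found in Jun (7.28%, Junos), Zfp36 (3.60%, Gm44710) and Zfp36l2 (2.97%, AC132455.1).

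Of 27 genes of cAMP signalling below the EP receptors, 20 were tested, 1 rose and 0 fell (median log2 fold change 0.04), a count near the 4.49% of all tested genes that were higher. Adcy7, an adenylyl cyclase gene, measured 4.46, 4.30, 4.25 and 3.93 FPKM in TABS, against 2.92, 2.43, 3.62 and 3.38 FPKM in HA (0.37 ± 0.09 SE, limma adjusted p = 0.0420). Its groups did not overlap, but the call was lost when any 1 library other than HA 3 was left out (adjusted p at most 0.104) and after the correction for GC content and length (0.0955).

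Library-to-library patterns were compared by mean absolute difference of centred log2(FPKM + 1) values over the 8 libraries. Predicted gene models, clone-named or unnamed genes and mitochondrially encoded genes were left out. Those most like Ptges were Vps37b, S1pr2, Cdc37, St3gal4 and Pgd, at 0.021 to 0.024 against a median of 0.139 over the tested genes that remained. All 5 rose in TABS by 0.23 to 0.30 on the log2 scale, since the measure follows the group difference. For Ptgs2 they were Rdx, Arid4a, Trim37, Nusap1 and Srfbp1 (0.022 to 0.026, median of the remaining tested genes 0.110), none of which passed the test. For Ptgis they were Col6a1, Aldh18a1, Gltp, Htra1 and Jmjd6 (0.025 to 0.033), where the low FPKM of Ptgis shrinks its own variation on this scale.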

How the data were processed

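RNA of 8 MC3T3-E1 libraries (4 TABS, 4 HA) was sequenced as paired reads on a NovaSeq instrument, per the labels' protocols. The authors deposited 1 FPKM value per gene and library. The submitters' processing notes name fastp, STAR, DESeq2 and build GRCm38, while the sources used here state neither the program behind the FPKM nor its annotation or strand setting. Columns were assigned by the library names in the labels. Of 55335 identifiers 55154 matched GENCODE M21 (GRCm38), which gave symbols, coordinates, exons and GC content, and Prxl2b was matched by a synonym.

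The members and gene lists were chosen with earlier results of these data known. Genes with at least 1 FPKM in at least 4 libraries (11280) entered a two-sided test on log2(FPKM + 1) in limma (version 3.58.1, run under R 4.3.3). This scale understates changes of low genes. The test used no covariates, with variances that follow the level and Benjamini-Hochberg adjusted p under 0.05 over all tested genes. Read counts were not recovered: 21.3% to 27.6% of low values were whole steps (within 0.02), so no count test was run, and implied fragments assume that 1 step is 1 fragment and that the exonic length of the annotation was used. No 2 libraries held identical values.

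Named genes were the 10 members, up to 5 genes past the test in each pathway list or else the one with the smallest adjusted p, Ptgir, Ptger3, Abcc4, Slco2a1 and Pla2g4a, and the 5 genes nearest in pattern to Ptgs2, Ptges and Ptgis. Ptgfr and Gstm2, and genes given only as low or as overlapping, were named after their values were seen. Alternatives were other pseudocounts, filters and scalings, robust variances, a correction for GC content and length (splines with 4 degrees of freedom), the replicate number as a block, and each library left out. A result on 1 further gene is not reported here.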

Additional observations from a re-analysis of the deposited data

Results flagged for a closer look

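Among 27 genes checked within groups of 4 libraries (50 groups with any spread), 1 value stood apart from the rest by Dixon's test, where chance flags about 1 group in 20. Ptger2 measured 0.0106 FPKM in TABS 1, against 0 to 0.0018 FPKM in the other TABS libraries. At the implied depth that is about 1.01 fragments, and the 0.0018 FPKM of TABS 4 about 0.23, which is not a whole fragment.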

How the results depend on the processing

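Under all 19 alternatives Ptgs1 kept its direction and its call (log2 fold change 0.34 to 0.41, limma adjusted p up to 0.0235). Ptges kept its direction (0.24 to 0.31) and its call in all but the replicate block (adjusted p = 0.0612, or 0.0300 with the block and the correction for GC content and length), so 1 prostaglandin gene rose with the block, against 2 otherwise; with 1 library left out the count stayed at 2 higher and 0 lower. The labels do not say that equal numbers share a culture. Of 4 same-numbered pairs, deviations from the group means correlated above 0.1 in 1 (-0.10 to 0.10). Among differently numbered pairs the range was wider, from -0.16 (TABS 2 with HA 1) to 0.18 (TABS 4 with HA 3). The block also ended the calls on Zfp36 (adjusted p = 0.0542), Cebpd (0.0602), Alox5ap (0.117), Zfp36l2 (0.0995) and Adcy7 (0.109), and with the correction added those on Cebpd (0.0846), Alox5ap (0.0811), Zfp36l2 (0.181) and Adcy7 (0.177), but not that on Zfp36 (0.0203), stayed lost. Alox5ap was lost with no filter (0.107) and with quantile normalization (0.0510), and Zfp36l2 and Adcy7 with no filter (0.0817 and 0.114). Signs turned in 2 genes that had not passed. Ptges3 went to 0.0091 after the GC and length correction, with or without the block, and Abcc4 to -0.0036 with median-of-ratios scaling, -0.043 after the correction with or without the block, and -0.028 to 0.027 with single libraries left out (below 0 without TABS 2, TABS 3 or HA 3, at -0.0088, -0.0089 and -0.028).

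Of all tested genes 833 were called, 506 higher and 327 lower. The count was 542 with no filter (195 lower), 230 with the block (136 higher, 94 lower) and 352 with block and correction (190 and 162), and 415 to 718 with 1 library left out (247 to 429 higher, 168 to 289 lower). TPM scaling gave 915 higher, or 79.3% of calls against 60.7%. Depth limits Ptgis, Ptger1, Ptger2 and Ptger4 most.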

Other observations

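Ptges and Ptgs1 lie on chromosome 2 within 5.36 megabases of each other (30889471 to 36252272 in GRCm38). Of 73 tested genes in this stretch, 6 were higher in TABS and 0 lower (limma, adjusted p under 0.05), or 8.22%, against 5.86% of 921 tested genes on the whole chromosome and 7.38% of all tested genes. Besides Ptgs1 and Ptges, those higher were Angptl2 (log2 fold change 0.38), Prrc2b (0.29), Mvb12b (0.19) and Fam129b (0.18). Ptges2, inside the same stretch, did not pass. The stretch was chosen after the calls on Ptgs1 and Ptges were seen, so its count includes them and was not tested.

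FPKM of Ptges was 2.52 to 2.68 times that of Ptgs1 in TABS and 2.76 to 2.93 times in HA, with no overlap. FPKM of Ptgs1 was 11.6 to 12.9 times that of Ptgs2 in TABS and 7.63 to 10.6 times in HA. These ratios were not tested.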
